A study of Caenorhabditis elegans with 8 samples.

Results

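Transcripts of nucleotide excision repair genes were compared between Caenorhabditis elegans mutant for ercc-1 and the wild type. The 10 genes were chosen by symbol: ercc-1, xpf-1, xpa-1, xpc-1, xpg-1, csa-1, csb-1, rad-23, xpb-1 and xpd-1. A gene was measured where the array's annotation gave it a probe set of its own, one assigned to exactly 1 gene, and this held for 9 of the 10, each with 1 probe set, among 17118 genes on 22548 probe sets in all. The remaining gene, xpd-1, is not analysed here. RNA of mixed-stage worms was hybridised to 4 arrays from the strain labelled NER-deficient ercc-1, whose background is N2, and to 4 arrays from wild type N2, the standard laboratory strain. All worms ate Escherichia coli HT115(DE3) with pL4440 over 3 to 4 days of culture; pL4440 is usually the control plasmid of feeding RNA interference. The labels name no allele and do not say whether replicates were separate cultures, so the p-values rest on a spread between arrays that may be technical.

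Nucleotide excision repair removes bulky lesions such as those left by ultraviolet light. Damage is recognised anywhere in the genome by XPC-1 with RAD-23, or at a stalled RNA polymerase by CSB-1 and CSA-1. The helicases XPB-1 and XPD-1 of the transcription factor TFIIH then open the helix, XPA-1 verifies the lesion, and the damaged strand is cut on one side by XPG-1 and on the other by the ERCC-1/XPF-1 endonuclease, after which the gap is filled and sealed. In this worm the genome-wide branch acts mainly in the germ line and the transcription-coupled branch mainly in somatic cells, and ERCC-1/XPF-1 also acts in crosslink repair and recombination.

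Among the repair genes csa-1 and xpc-1 had the largest differences between mutant and wild type, both with a lower mutant mean, and neither passed the test. None of the 9 genes passed an adjusted p of 0.05 (limma, Benjamini-Hochberg over all probe sets), against 0.672% of all genes, and 1 of the 9, csa-1, had an unadjusted p under 0.05, against 10.5% of all genes. The mutant values of csa-1 all lay below the wild-type values, which held for no other member and for 1.87% of all genes. For 7 of the 9 genes the 95% confidence interval of the difference lay within 1.2-fold in either direction, ercc-1 and xpf-1 included. This bound holds for the values as deposited only. With each array's median subtracted the difference was -0.105 (SE 0.0881) for ercc-1 and -0.1475 (SE 0.0757) for xpb-1. The mutant mean was the lower one for 8 of 9 members, against 39.7% of all genes, and the median log2 difference was -0.0425 over the members and 0.03 over all genes. All 9 probe sets were brighter than 6.425, the log2 value below which 25% of probe set means lay, and no detection calls were used.

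**Figure D1:**
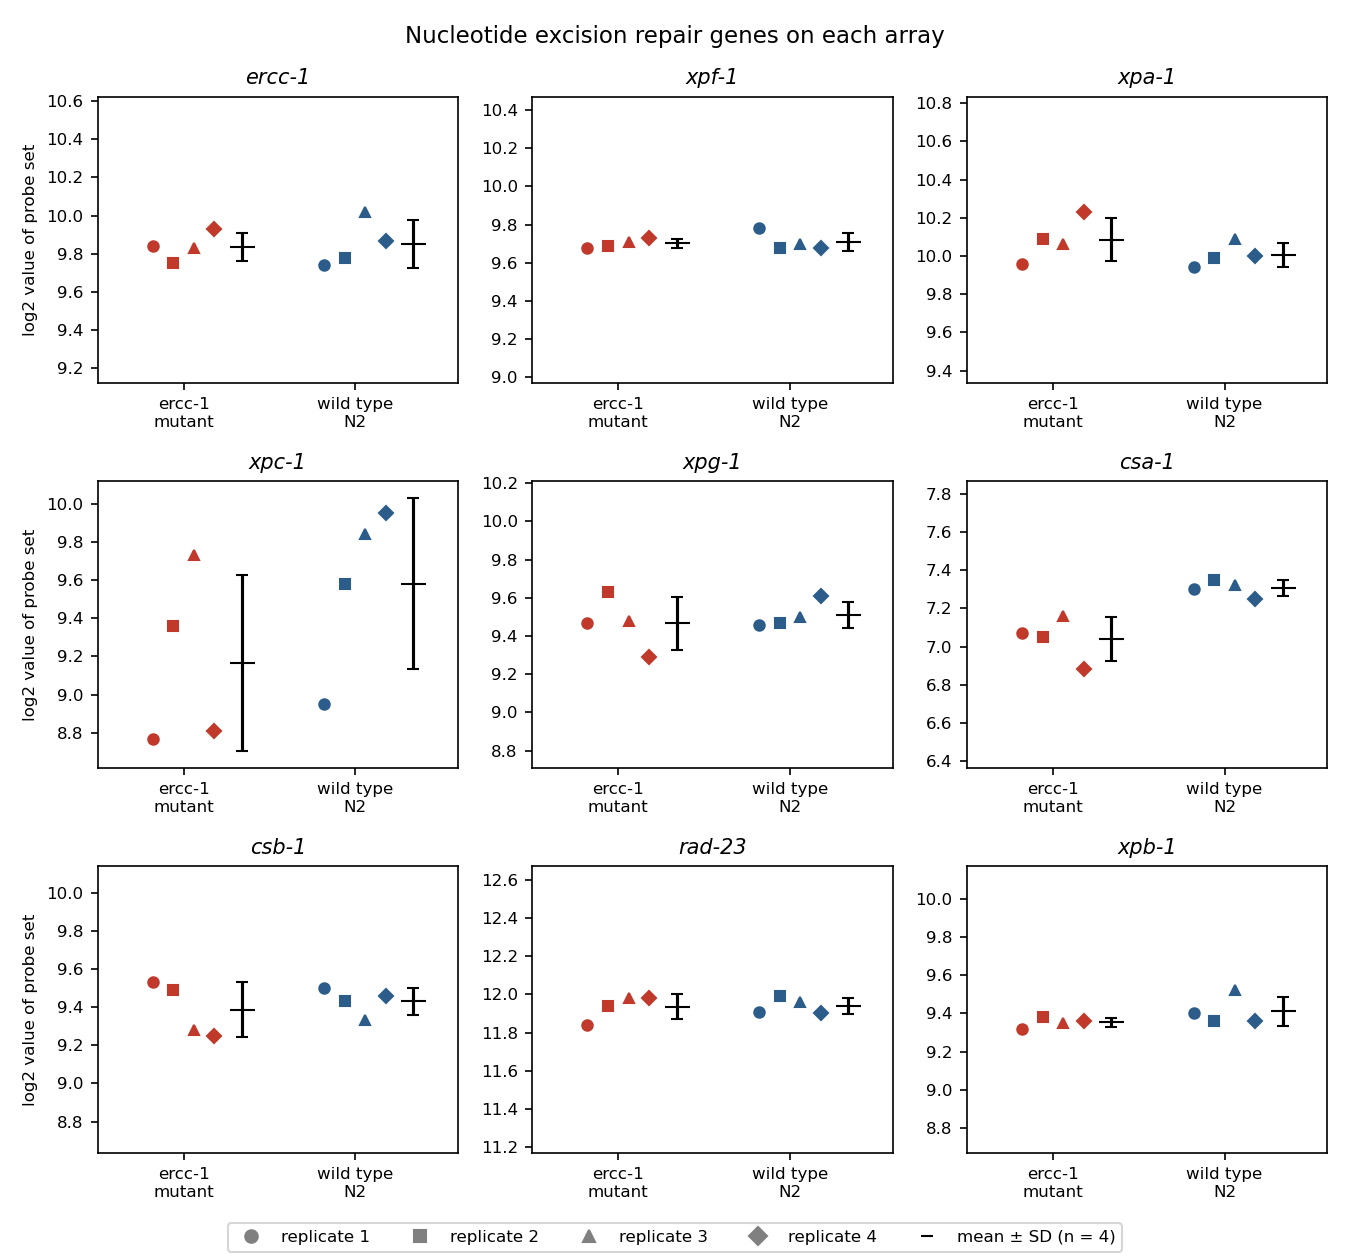
Log2 value of each repair gene's probe set (y axis, each panel spans the same 1.5 log2 units) on the 4 ercc-1 mutant arrays (left, red) and the 4 wild type N2 arrays (right, blue); marker shapes give replicate numbers and black bars the mean ± SD. The groups overlap in every panel but that of csa-1, and the values of xpc-1 spread over 1.18 log2 units.

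Correlations between pairs of arrays ran from 0.9776 to 0.9957. Probe sets had a median SD of 0.154 on mutant and 0.113 on wild-type arrays, and array medians ran from 7.44 to 7.59 in the mutant and from 7.39 to 7.44 in wild type. Sperm markers differed between the groups, with 18 of 21 measured msp genes called higher in the mutant, against 0.532% of all genes. Each msp probe set ends in _x_at and may bind transcripts of related genes, so these are not 21 separate measurements. Their summed level on the linear scale was 77260 to 133500 on mutant arrays and 38830 to 45860 on wild-type arrays. Germline and oocyte markers (15 genes, among them glp-1, pgl-1 and oma-1) did not pass as genes, with a median log2 difference of -0.0275 and sums of 62650 to 66280 on mutant arrays and 61020 to 65680 on wild-type arrays. Of the other markers, 0 of 5 yolk genes, 0 of 8 embryonic genes and 1 of 10 male genes, cwp-2, were called, against 0.672% of all genes. The cwp-2 probe set was dim, at 5.66 to 6.09 on mutant and 5.11 to 5.29 on wild-type arrays. No gene of these lists was listed at 0 on any array. The part of these markers in the values of the repair genes was not tested.

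The incision nuclease was examined first, as the mutated subunit belongs to it. The probe set of ercc-1, which encodes the non-catalytic subunit, read 9.84, 9.75, 9.83 and 9.93 on mutant replicates 1 to 4, against 9.74, 9.78, 10.02 and 9.87 on wild-type replicates 1 to 4. These values interleave, and the highest belongs to wild-type replicate 3. The log2 difference was -0.015 with a 95% interval of -0.198 to 0.168 (adjusted p = 0.977). Where the probes lie relative to the lesion is not known here, so the probe set does not check the strain labels. Its partner xpf-1, which encodes the catalytic subunit, read 9.68, 9.69, 9.71 and 9.73 in the mutant, against 9.78, 9.68, 9.70 and 9.68 in wild type. It varied least of all members, by 0.1 over the 8 arrays, and its SD over mutant arrays (0.0222) was below that of all but 0.772% of probe sets. The log2 difference of xpf-1 was -0.0075 with a 95% interval of -0.14 to 0.13 (adjusted p = 0.985), so that a change beyond 1.11-fold lower or 1.09-fold higher fell outside it. That interval is for the values as deposited, and with each array's median subtracted the difference was -0.0975 (SE 0.0734).

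The nuclease on the other side of the lesion, xpg-1, read 9.47, 9.63, 9.48 and 9.29 in the mutant, against 9.46, 9.47, 9.50 and 9.61 in wild type. Mutant arrays held both its highest and its lowest value, and the difference was -0.0425 (SE 0.0845, adjusted p = 0.926). For xpa-1, the damage verification protein, values were 9.96, 10.09, 10.06 and 10.23 in the mutant and 9.94, 9.99, 10.09 and 10 in wild type. It was the 1 member with a higher mutant mean, by 0.08 on the log2 scale (95% interval -0.0925 to 0.25, adjusted p = 0.812), a value that became -0.010 with each array's median subtracted. Its highest value came from mutant replicate 4, and the other 3 mutant values lay within the wild-type range of 9.94 to 10.09. The TFIIH helicase gene xpb-1 read 9.32, 9.38, 9.35 and 9.36 in the mutant and 9.40, 9.36, 9.52 and 9.36 in wild type. The mutant SD of 0.025 was among the smallest 0.976% of probe sets, and the difference was -0.0575 (95% interval -0.205 to 0.09, adjusted p = 0.847).

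Of the genome-wide damage sensors, xpc-1 spread widely over the arrays of both groups. Its probe set read 8.77, 9.36, 9.73 and 8.81 on mutant replicates 1 to 4, against 8.95, 9.58, 9.84 and 9.95 on wild-type replicates 1 to 4. There were 3 low arrays, mutant replicates 1 and 4 and wild-type replicate 1, and the other 5 lay between 9.36 and 9.95. The 4 mutant values had an SD of 0.462 and the 4 wild-type values one of 0.448, larger than for 95.5% and 99.1% of probe sets in those groups. The mean was 9.17 in the mutant and 9.58 in wild type, a log2 difference of -0.41 (SE 0.263, 95% interval -1.003 to 0.18, adjusted p = 0.682; exact two-sided permutation p = 0.229, n = 4 each). That interval runs from 2.004-fold lower to 1.13-fold higher, so this design neither detected nor bounded closely a change of xpc-1. Its binding partner rad-23 showed no such spread. Its values were 11.84, 11.94, 11.98 and 11.98 in the mutant and 11.91, 11.99, 11.96 and 11.90 in wild type, with a difference of -0.005 (95% interval -0.152 to 0.142, adjusted p = 0.991).

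Other transcripts were then picked for likeness to xpc-1, so that they share its low values by selection. Ranked after its values were seen, the 5 genes whose levels followed it most closely over the 8 arrays were dot-1.1, a histone methyltransferase of the DOT1 family, Y108G3AL.2, mrpl-1, a mitochondrial ribosomal protein, swsn-3 and rhgf-3. Pearson's r with xpc-1 ran from 0.978 for rhgf-3 to 0.988 for dot-1.1 (n = 8 arrays), given as a description of the 5 best among 17117 genes measured on the same arrays. The probe set of dot-1.1 read 7.09, 8.01, 8.46 and 6.86 in the mutant, against 7.35, 8.11, 8.65 and 8.70 in wild type, and the same 3 arrays were the low ones.

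Both transcription-coupled sensors were measured. The transcript of csa-1, whose product is a WD-repeat protein of a ubiquitin ligase, read 7.07, 7.05, 7.16 and 6.88 in the mutant, against 7.30, 7.35, 7.32 and 7.25 in wild type. The groups did not overlap, and the highest mutant value lay 0.09 below the lowest wild-type value. Mutant arrays averaged 7.04 ± 0.117 and wild-type arrays 7.305 ± 0.042 (SD, 4 arrays each), a log2 difference of -0.265 (SE 0.0759, 95% interval -0.435 to -0.0946), which is 1.202-fold lower with an interval of 1.07-fold to 1.35-fold lower. The exact two-sided permutation p was 0.0286, the smallest that 70 assignments can give. Every gene whose groups do not overlap gets this value, so it adds nothing to the separation itself. The unadjusted p of the limma fit was 0.00633 and its adjusted p over all probe sets was 0.232. The difference thus did not pass the threshold, and 2.24% of all genes were lower in the mutant at an unadjusted p under 0.05. In whole-worm RNA, fewer cells that express csa-1 and less RNA per cell cannot be told apart. The probe set has the suffix _s_at, which marks possible matches to several transcripts, and no other probe set of csa-1 was measured.

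Leaving out each array in turn moved the csa-1 difference between -0.212 and -0.305 with adjusted p from 0.141 to 0.533, and that of xpc-1 between -0.28 and -0.62 with adjusted p from 0.368 to 0.876. The interval of csa-1 is for the values as deposited. With each array's median subtracted its difference was -0.355 (SE 0.0878, limma adjusted p = 0.153), and after quantile normalization -0.344 (adjusted p = 0.169). For xpc-1 the median-subtracted difference was -0.5025 (SE 0.269, adjusted p = 0.480). With array weights csa-1 passed (-0.251, adjusted p = 0.0270). In that fit mutant replicate 2 had a weight of 5.05 and the other mutant arrays 0.322 to 0.624. It called 6.68% of all genes in either direction, against 0.672% in the main fit, and 1.15% of all genes lower in the mutant. The other transcription-coupled gene, csb-1, encodes a SWI/SNF-type ATPase. It read 9.53, 9.49, 9.28 and 9.25 in the mutant and 9.50, 9.43, 9.33 and 9.46 in wild type. Mutant replicates 3 and 4 lay below every wild-type value and mutant replicate 1 above them all, and the difference of the means was -0.0425 (95% interval -0.236 to 0.151, adjusted p = 0.928).

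**Figure D2:**
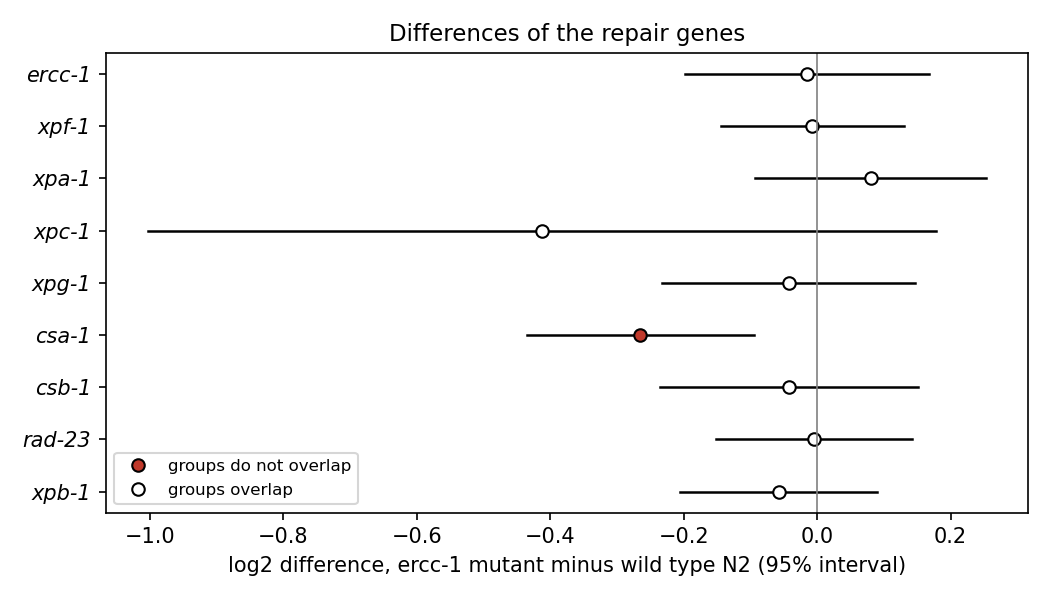
Log2 difference (x axis, ercc-1 mutant minus wild type N2) of each repair gene with its 95% confidence interval; the filled point marks the gene whose groups do not overlap. The interval of csa-1 alone excludes 0 before adjustment, and that of xpc-1 is the widest, from -1.003 to 0.18.

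**Figure D3:**
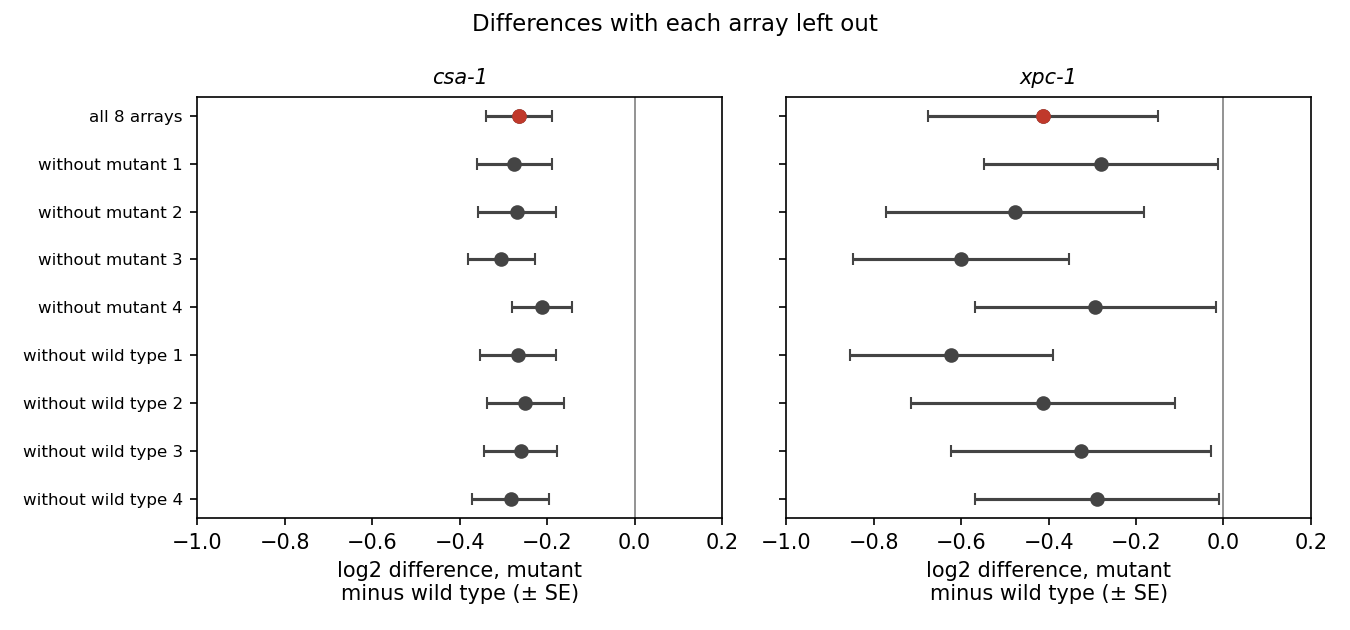
Log2 difference (x axis, mutant minus wild type, ± SE) of csa-1 and xpc-1 with all 8 arrays (red, top) and with each array left out. The difference of csa-1 stays between -0.212 and -0.305, and that of xpc-1 moves between -0.28 and -0.62.

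Genes that work beside the 9 members were followed in 4 lists, with 33 of 34 genes measured. By their brightest probe sets none of the 33 passed, against 0.672% of all genes, and none had an unadjusted p under 0.05, against 10.5%. The mutant mean was lower for 23, against 39.7% of all genes, higher for 9 and equal for 1, the median log2 difference was -0.0225, and single genes lay between -0.115 and 0.065. A lower mutant mean was not particular to repair genes. Among the 15 germline and oocyte markers it was lower for 10 and higher for 5, with a median of -0.0275. Among the 5 yolk markers it was lower for 1 and higher for 4. With each array's median subtracted, all 33 and all 9 members had a lower mutant mean, against 66.8% of all genes, and after quantile normalization 31 of the 33 and 8 of the 9 did, against 54.1% of all genes. With array weights 25 of the 33 and 6 of the 9 did, against 38.7% of all genes. Without mutant replicate 1 the counts were 19 of the 33 and 6 of the 9, against 42.9%. The direction was not tested.

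The remaining subunits of TFIIH and its CDK-activating kinase gave 0 of 8 calls, with a median of -0.035. Smallest in p were gtf-2H5 and gtf-2H3, both core TFIIH subunits. The probe set of gtf-2H5 read 9.59, 9.64, 9.55 and 9.52 in the mutant and 9.61, 9.65, 9.83 and 9.58 in wild type (log2 difference -0.0925, adjusted p = 0.769), and gtf-2H3 read 10.48, 10.53, 10.54 and 10.58 in the mutant and 10.59, 10.49, 10.82 and 10.59 in wild type (-0.090, adjusted p = 0.798). In both genes the highest wild-type value was that of wild-type replicate 3, the array that was highest of its group in 37.7% of all genes. The kinase gene cdk-7 had 4 probe sets, with differences of -0.0425, -0.075, 0.105 and 0.0725, so they did not share a direction. The gene of its partner cyclin H, cyh-1, read 6.99, 7.39, 7.46 and 7.51 in the mutant and 6.93, 7.35, 7.54 and 7.60 in wild type. Replicate 1 was the lowest array of each group, and the difference of the means was -0.0175 (SE 0.164, adjusted p = 0.986).

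Damage recognition through the CUL-4/DDB-1 ubiquitin ligase and the transcription-coupled factors uvs-1 and syf-1 gave 0 of 5 calls, with a median of -0.03. The ligase's RING subunit gene rbx-1 read 11.58, 11.66, 11.76 and 11.48 in the mutant and 11.66, 11.65, 11.88 and 11.64 in wild type (-0.0875, adjusted p = 0.821). The scaffold gene cul-4 read 8.81, 8.60, 8.71 and 8.56 in the mutant and 8.97, 8.75, 8.56 and 8.74 in wild type (-0.085, adjusted p = 0.850). Mutant and wild-type values overlapped in both.

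Repair synthesis and ligation, carried out by the single-strand binding protein RPA, the clamp PCN-1 and its loader RFC, DNA polymerases and a ligase, gave 0 of 12 calls, with a median of -0.0188. The clamp loader gene rfc-4 had the smallest p of all 33 genes, with 11.43, 11.45, 11.36 and 11.33 in the mutant and 11.48, 11.45, 11.65 and 11.45 in wild type (-0.115, adjusted p = 0.678). The groups met at 11.45. The RPA subunit gene rpa-2 read 11.46, 11.50, 11.45 and 11.15 in the mutant and 11.44, 11.45, 11.59 and 11.40 in wild type (-0.080, adjusted p = 0.849). The large RPA subunit gene, rpa-1, had 2 probe sets, with log2 differences of 0.0075 for the brighter, which stands for the gene in the counts, and -0.2625 for the dimmer, which carries the suffix _x_at (95% interval -0.492 to -0.033, unadjusted p = 0.0294, adjusted p = 0.423).

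Structure-specific nucleases and the SLX4 scaffold gene him-18, whose product is known as a platform for the XPF-1 nuclease in this worm, gave 0 of 8 calls, with a median of -0.02. The nuclease-helicase gene dna-2 read 10.38, 10.16, 10.43 and 10.27 in the mutant and 10.42, 10.33, 10.37 and 10.46 in wild type (-0.085, adjusted p = 0.801). The resolvase gene gen-1 read 11, 10.97, 11.07 and 10.88 in the mutant and 11.02, 10.96, 10.75 and 10.93 in wild type (0.065, adjusted p = 0.862). For mus-81, a nuclease of the XPF family, the group means were equal. The probe sets of its partner eme-1 differed in spread. The dimmer one read 7.19, 7.92, 8.69 and 8.03 in the mutant and 7.22, 8.5, 8.57 and 8.42 in wild type, with replicate 1 low in both groups, while the brighter one stayed between 10.29 and 10.46 on all 8 arrays.

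**Figure D4:**
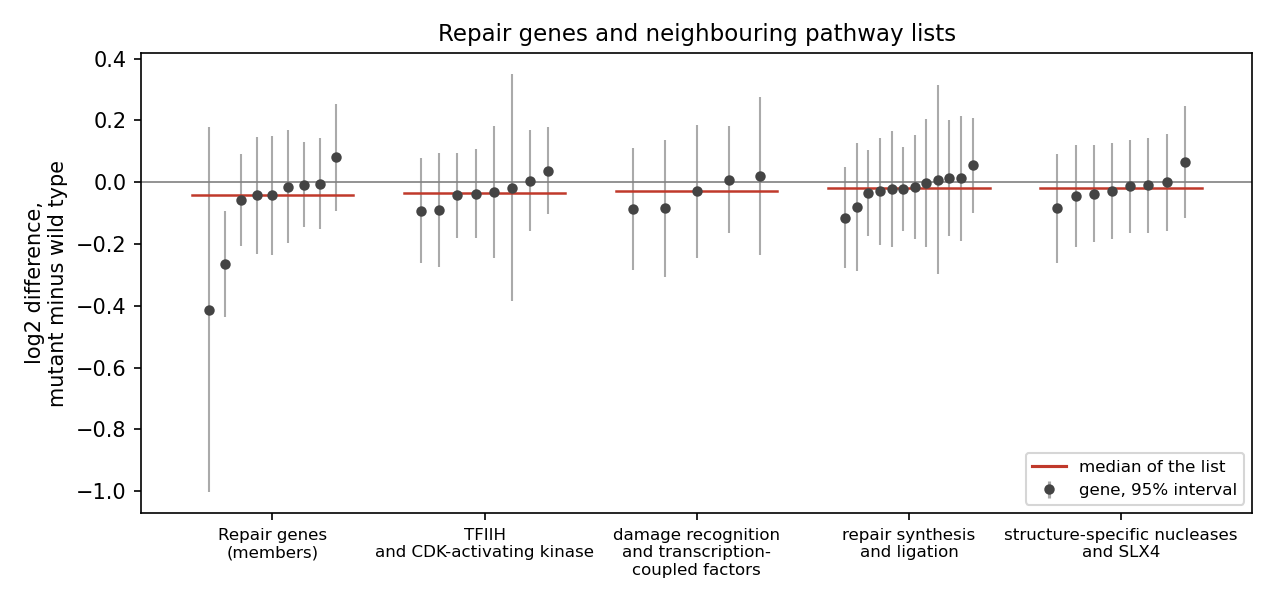
Log2 difference (y axis, ercc-1 mutant minus wild type N2) of the 9 repair genes and of the genes in 4 neighbouring pathway lists, each point a gene's brightest probe set with its 95% confidence interval and each red line a list's median. The 33 list genes lie between -0.115 and 0.065, and csa-1 and xpc-1 are the 2 lowest points.

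The arrays were also ranked within their group, gene by gene. Over the 42 members and list genes, mutant replicates 1 to 4 gave the lowest mutant value in 16, 7, 4 and 13 genes (24.0%, 15.4%, 31.5% and 25.6% of all genes) and the highest in 4, 7, 17 and 13 (31.1%, 13.5%, 17.7% and 34.7% of all genes). Wild-type replicates 1 to 4 gave the lowest wild-type value in 12, 6, 14 and 6 genes (26.7%, 26.7%, 22.1% and 19.7% of all genes) and the highest in 11, 9, 12 and 8 (25.03%, 14.4%, 37.69% and 18.89% of all genes). Among the 9 members alone, the lowest mutant value came from replicates 1 to 4 in 5, 1, 0 and 3 genes and the highest in 1, 2, 2 and 3, with ties left out. These shares are a description and were not tested.

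The surroundings of ercc-1 on chromosome I and the genes most like it were also read. The members lie on chromosomes I (ercc-1, xpa-1, xpg-1), II (xpf-1, csa-1, rad-23), III (xpb-1), IV (xpc-1) and X (csb-1) in the RefSeq annotation. Of the 5 nearest measured genes on each side of ercc-1, 0 of 10 passed, against 0.672% of all genes. In the mutant 7 were higher and 3 lower, where 39.7% of all genes had a lower mutant mean. The log2 differences ran from -0.212 for F10G8.9 (adjusted p = 0.513) to 0.40 for B0379.7 (limma, unadjusted p = 0.00548, adjusted p = 0.218). The genes with the closest profile to ercc-1 over the 8 arrays were srw-111, srj-55, otpl-8, srg-19 and Y57A10C.10, with Pearson's r from 0.962 to 0.945 among 17117 genes. The srw, srj and srg genes belong to families of serpentine chemoreceptors. The probe sets of srw-111 (4.13 to 5.09) and srg-19 (5.14 to 5.51) were dim, below the 6.425 under which 25% of probe set means lay. These 5 are the best of many genes on 8 arrays and are given as a description only. On wild-type replicate 3 srw-111 read 5.09 and ercc-1 10.02, each the highest of its 8 values. That array was the highest of the wild-type arrays in 37.7% of all genes. This share is for the wild-type group alone, and the share over all 8 arrays was not counted.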

How the data were processed

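RNA was isolated with TRIZOL and its biotin-labelled target run on the Affymetrix C. elegans array, 1 sample an array, per the labels' protocols. The authors deposited 1 value per probe set and array, taken here to be on the log2 scale; no source states the log base, which was inferred from the range of the values. Affymetrix Expression Console 1.1 is named in the submitters' processing notes. The sources used here give no summarisation or normalization method. No 2 arrays held identical values, and the table was used without further normalization.

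The platform annotation gave 20766 probe sets with 1 gene. A gene was represented by its brightest probe set, by the mean of the 8 arrays. Chromosomes and gene order are those of RefSeq assembly WBcel235, and the build behind the array is unknown. Differences, mutant minus wild type, came from limma 3.58.1 under R 4.3.3 (lmFit, eBayes, all 22548 probe sets, two-sided, Benjamini-Hochberg), with a call at an adjusted p under 0.05 and 95% confidence intervals. The fit was tested on simulated data with independent noise and the same spread in both groups. That simulation held no deviations shared within an array, so it does not test their effect on the calls. Exact permutation tests ran over 70 assignments. The text names all members, the 2 genes of smallest p in each pathway list without a call, and the 5 genes most correlated with ercc-1; other genes were named after their values were seen. Members and lists were chosen with earlier results of these data known. The number of arrays limits the precision. Alternatives covered the normalization, filters, the variance model, array weights, a replicate block, the choice of probe set and each array left out.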

Additional observations from a re-analysis of the deposited data

Results flagged for a closer look

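In 3 of 34 groups of 4 values examined among the named repair genes, 1 array lay far from the other 3, by a criterion that flags about 5% of groups by chance. All 3 flagged genes come from the pathway lists, where genes were named for their small p in these same values. The 5% is therefore not a matched comparison. For rpa-2, mutant replicate 4 read 11.15, against 11.45 to 11.50 on the other mutant arrays. For rbx-1, wild-type replicate 3 read 11.88, against 11.64 to 11.66 on the other wild-type arrays. For rfc-4, wild-type replicate 3 read 11.65, against 11.45 to 11.48 on the other wild-type arrays.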

How the results depend on the processing

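No member passed under any alternative except array weights, where the count was 1 (csa-1, log2 difference -0.251), against 6.68% of all genes. No list gene passed under any, and leaving out 1 array gave 0 members in all 8 fits. The csa-1, xpc-1 and xpb-1 differences kept their direction in every fit that held them. Small differences turned sign without 1 array: between -0.0525 and 0.0408 for ercc-1, -0.0175 and 0.0158 for xpf-1, -0.0967 and 0.0167 for xpg-1, -0.09 and 0.0033 for csb-1, and -0.02 and 0.0267 for rad-23. With array weights xpg-1 read 0.0672, csb-1 0.0251 and rpa-2 0.0267, and after median centring xpa-1 read -0.010 and gen-1 -0.025; the cause was not tested. Without _x_at and _s_at probe sets csa-1, rad-23 and xpb-1 had no value. With the replicate number as a block 0 members passed and csa-1 had an adjusted p of 0.235. The SE of xpc-1 fell from 0.263 to 0.175 at the same difference (limma, unadjusted p = 0.0516, adjusted p = 0.430). Same-numbered arrays deviated together with correlations of 0.473, 0.014, 0.0396 and 0.201. Of the 8 arrays 3 were most like their own number, so the numbers were not taken as pairs. Over all probe sets calls numbered 150, 46 without _x_at and _s_at probe sets, 1423 with array weights, 29 to 37 without any 1 wild-type array, and 89, 80 and 268 without mutant replicate 1, 2 and 4. Signal over background is unknown for every probe set.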
